A study of Mus musculus with 8 samples.

Results

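The 42 genes described here are interferon-stimulated genes and genes of the machinery that senses foreign or misplaced nucleic acid in the cytosol. They form a fixed list of names, matched by name in the authors' deposited table and by gene identifier in the count files, and all 42 were found among 49584 features. RNA of crude heart mitochondria was sequenced from 4 Tefm knockout mice and 4 control mice, 1 TruSeq library per mouse, read as paired ends on a MiSeq. The knockout mice are labelled L/L, cre and Tefm -/-: an exon of Tefm lies between loxP sites and is cut out by cre under the muscle creatine kinase promoter. The control mice are labelled L/L without cre, and Tefm +/+ in the genotype field. That promoter acts in heart and skeletal muscle cells, so endothelial cells, fibroblasts and leukocytes of the heart are not its targets. The sources used here do not give the age of the mice. TEFM keeps the mitochondrial RNA polymerase elongating, and the series asked what its loss does to RNA in heart mitochondria.

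Cells carry sensors that bind nucleic acid where it should not be. RIG-I and MDA5 bind double-stranded RNA and signal through MAVS on the mitochondrial outer membrane, and cGAS binds double-stranded DNA and signals through STING. DNA or RNA that leaves mitochondria is a known ligand of these sensors. Both routes activate IRF3 and IRF7, which switch on interferon genes. Secreted type I interferon binds its receptor and activates a complex with STAT2 and IRF9, which binds the interferon-stimulated response element (ISRE) of many target genes. Interferon gamma acts at the gamma-activated site (GAS) and is a strong inducer of the interferon-inducible GTPases. Resting tissue holds a low level of many of these mRNAs without infection.

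Both elements can be read in front of genes of the list. RefSeq promoters of the GRCm38.p6 build, from 250 bases before to 50 bases after the transcription start, were found for 32 of the 42 genes. A pair of sequence patterns was searched on either strand: GAAANNGAAA for the ISRE core, and TTCNNNGAA for the GAS. The patterns can overlap each other, and repeated copies can overlap. Igtp and Irgm2 are shown because their p-values were the smallest among the 42 genes. Gbp3 and Gbp7, GTPases of another family, and Isg15, a classical target of type I interferon, were picked after the matches had been seen. Each line gives 100 bases, 5′ to 3′ on the gene's strand, with both patterns in capitals.
Igtp: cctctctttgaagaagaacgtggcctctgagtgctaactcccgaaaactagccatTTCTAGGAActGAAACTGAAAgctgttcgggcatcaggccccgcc
Irgm2: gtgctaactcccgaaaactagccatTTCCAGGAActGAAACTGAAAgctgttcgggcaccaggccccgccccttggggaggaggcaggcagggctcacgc
Gbp3: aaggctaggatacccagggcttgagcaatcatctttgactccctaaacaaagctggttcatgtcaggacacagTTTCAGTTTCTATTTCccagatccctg
Gbp7: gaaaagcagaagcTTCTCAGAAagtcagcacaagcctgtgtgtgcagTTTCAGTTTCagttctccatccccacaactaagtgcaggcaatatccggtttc
Isg15: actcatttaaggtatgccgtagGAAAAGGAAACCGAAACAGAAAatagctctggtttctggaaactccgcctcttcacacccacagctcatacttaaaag
These stretches lie at chr11:58199456-58199555 (+ strand), chr11:58214877-58214976 (+ strand), chr3:142559926-142560025 (+ strand), chr3:142530236-142530335 (+ strand) and chr4:156200819-156200918 (- strand), outside annotated exons, and the Irgm2 stretch lies inside the Irgm2 gene body. The GENCODE annotation starts Irgm2 at chr11:58199618, far upstream of the RefSeq start behind the Irgm2 stretch. That RefSeq window is the one counted for Irgm2 below. Igtp and Irgm2 share 59 of 60 bases around the paired GAS and ISRE core. The ISRE core was present in the window nearest the start of 17 of the 32 genes (53.1%), against 3.44% of 32851 RefSeq promoter windows. The GAS pattern was present in 9 of 32 (28.1%), against 8.3% of all windows. A match is a run of letters, not a measured binding site.

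Library totals were 21108165 to 25393933 counts in knockouts, against 26268804 to 27403415 counts in controls. Counts of the mitochondrial genome made up 38.7% to 59.3% of knockout libraries, against 72.3% to 74.0% of control libraries, so nuclear genes hold a larger share of every knockout library. Values are therefore given as CPM, counts scaled to the size of the library, after TMM scaling, which sets the bulk of the genes tested equal between libraries. Fold changes are knockout over control on the log2 scale with standard errors (SE), and a gene was called at an adjusted p under 0.05 in edgeR's quasi-likelihood test over 17891 genes. Knockout library 1 stood apart from the other knockouts, with a chi-square per degree of freedom of 91.2 to 139.9 against them, where the other knockouts differed from each other by 8.55 to 15.7 and the controls by 2.56 to 3.997. These distances are of raw counts that include the mitochondrial genome. Knockout 1 had the largest mitochondrial share of the knockouts, 59.3%, and the part of that share in its distance was not tested. Tefm itself had 166, 233, 230 and 245 raw counts in knockouts, against 110, 117, 106 and 144 raw counts in controls. These counts are not scaled. All nuclear genes together had 10331611 to 13204546 raw counts in knockouts, against 6825329 to 7596951 in controls. The raw counts of Tefm therefore do not show a higher level relative to the other nuclear genes. Counts of Tefm are summed over the whole gene, so they do not show the removal of an exon and cannot check the labels.

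Relative to the other nuclear genes, most of the interferon-stimulated and sensing genes were lower in RNA of crude mitochondria from knockout hearts. Of 41 tested, 36 were lower and 0 higher, although with scaling by library totals alone 5 were lower and 9 higher. Among all genes tested, 23.9% were called lower and 26.1% higher. The 0 higher calls were also 0 at an unadjusted p under 0.05 and 0 with DESeq2. At least 1.5-fold lower were 28 of the 41, against 14.3% of all genes tested. The values of the groups did not overlap, with every knockout below every control, for 31 genes, against 21.5% of all genes tested. The median log2 fold change was -0.89, where the median of all genes was -0.01. The range ran from -2.30 for Igtp to 0.09 for Ifit2. Without knockout library 1 the count of lower genes was 36 as well, and without any other library it was 33 to 37. Oas3 did not pass the filter on low counts, and Dhx58, Zbp1, Mb21d1, Tmem173 and Ifit2 did not pass the test. In bulk RNA, fewer cells of a type and less RNA per cell cannot be told apart. All values are levels of nuclear mRNA carried in crude mitochondria. Levels in whole heart, and whether this carry-over differed between the groups, were not measured.

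**Figure D1:**
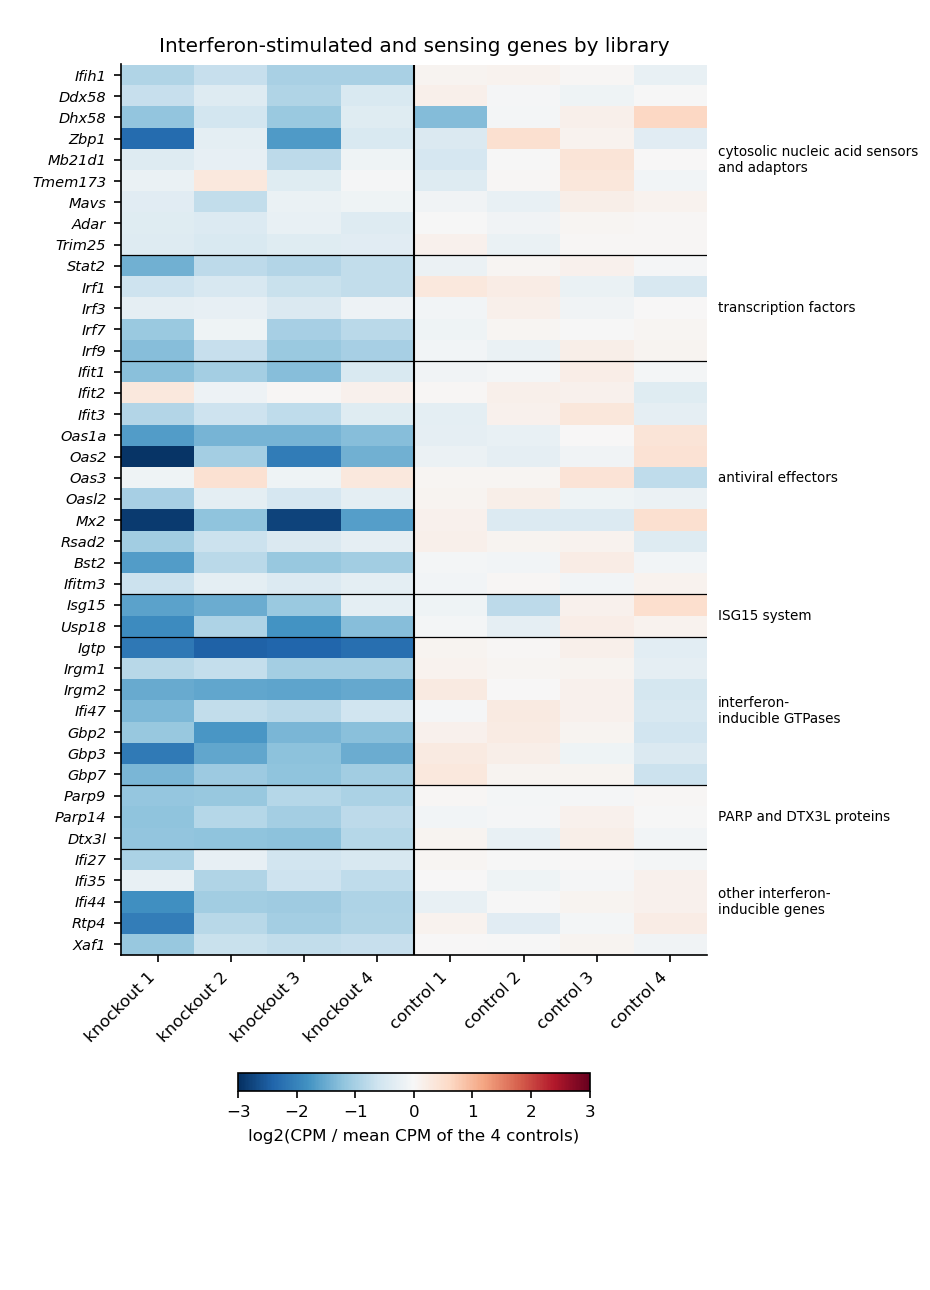
Normalized CPM of the 42 genes (down the page, by role) in 4 knockout and 4 control libraries (across), as the log2 ratio to the mean of the 4 controls after TMM scaling. Blue fills most of the knockout columns, with Igtp at the dark end in all 4 and Oas2, Mx2 and Zbp1 darkest in knockout 1. With scaling by library totals alone the median of the genes changes sign.

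Summed over the 42 genes, the knockout libraries held 229, 249.9, 246 and 269.9 CPM, against 432, 416, 443 and 393 CPM in the control libraries. The sums of the groups did not overlap. Per kilobase of exon, control libraries had most RNA of Ifitm3, an endosomal restriction factor, at 25.5 CPM per kilobase. Mavs followed at 11.7, Igtp at 6.80 and Irgm2 at 6.04 CPM per kilobase in controls. In knockouts Ifitm3 and Mavs were again first, at 19.3 and 9.21 CPM per kilobase, but Igtp and Irgm2 had 1.38 and 2.06 CPM per kilobase. The lowest levels in controls belonged to Oas3, Zbp1, Mb21d1 and Mx2, at 0.036, 0.160, 0.217 and 0.385 CPM per kilobase, where counts limit precision.

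**Figure D2:**
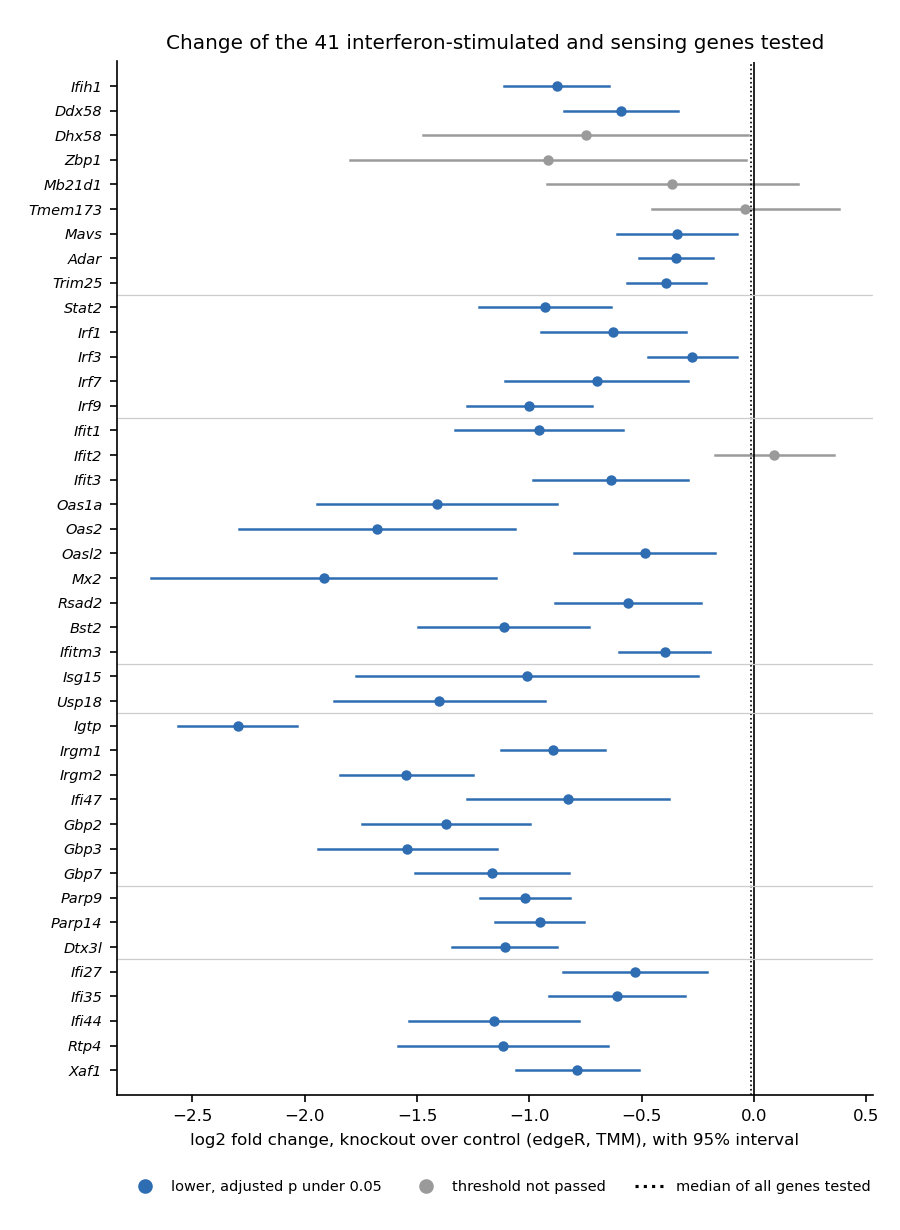
Log2 fold change, knockout over control, of the 41 genes tested, with 95% intervals from edgeR after TMM scaling, and genes ordered by role. The dotted line is the median of all genes tested (-0.01). Points of 36 genes lie below 0 and pass the threshold (blue), and grey points did not pass. With scaling by library totals alone, 26 of the 41 values lie above 0.

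Of the 9 sensors and adaptors, 5 were lower after TMM scaling (Ifih1, Ddx58, Mavs, Adar and Trim25) and 4 did not pass the test, and all 9 values were above 0 with scaling by library totals alone. Their median log2 fold change was -0.39, nearer to 0 than that of any other role group. Ifih1 encodes MDA5, the sensor of long double-stranded RNA. It had 5.08, 5.9, 4.9 and 4.88 CPM in knockouts 1 to 4, against 10.1, 10.2, 9.78 and 8.16 CPM in controls 1 to 4. Every knockout lay below every control, and the estimated level was 1.84-fold lower (log2 fold change -0.88 ± 0.11, SE, edgeR adjusted p = 1.44e-05). Ddx58 encodes RIG-I, the sensor of short RNA with a triphosphate end. Its level was 6.34, 7.75, 5.48 and 7.43 CPM in knockouts and 11.3, 9.997, 9.34 and 10.1 CPM in controls. The groups were apart, by less than for Ifih1 (log2 fold change -0.59 ± 0.12, SE, edgeR adjusted p = 8.59e-04). Dhx58 encodes LGP2, a relative without signalling domains that tunes MDA5 and RIG-I. It had 0.573, 0.896, 0.605 and 1.01 CPM in knockouts, against 0.526, 1.26, 1.44 and 1.99 CPM in controls. Control 1 was the lowest of the 8 libraries for Dhx58, so the groups overlapped and the test was not passed (log2 fold change -0.75 ± 0.34, SE, edgeR adjusted p = 0.0788). Without control 1 Dhx58 was called, at -1.01 (edgeR adjusted p = 0.0105).

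Mavs, the adaptor on mitochondria that both RNA sensors use, had 30.6, 23.3, 33.8 and 35.6 CPM in knockouts, against 36.5, 33.5, 44.4 and 41.9 CPM in controls. Knockout 2 was the lowest, and knockouts 3 and 4 lay above control 2 (log2 fold change -0.34 ± 0.12, SE, edgeR adjusted p = 0.033). Without knockout 2 its log2 fold change was -0.23 and the call was lost (edgeR adjusted p = 0.0820), and without control 3 or control 4 it was lost as well. Trim25, a ubiquitin ligase that helps RIG-I signal, had 15.4, 14.7, 15.7 and 15.9 CPM in knockouts, against 22.1, 17.5, 20.7 and 20.6 CPM in controls. The knockouts were close together and all below the controls (log2 fold change -0.39 ± 0.08, SE, edgeR adjusted p = 0.00127). Adar encodes ADAR1, which edits double-stranded RNA and so keeps the cell's own RNA from MDA5. Its level was 13.7, 13.2, 15.04 and 13.5 CPM in knockouts and 17.6, 16.5, 18.4 and 18.1 CPM in controls. The groups stood apart by a small margin (log2 fold change -0.35 ± 0.08, SE, edgeR adjusted p = 0.00185). Adar overlaps Chrnb2 on the opposite strand, and the sources used here do not state whether counting used strand.

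The DNA sensing side showed no call. Mb21d1 encodes cGAS and had 0.687, 0.752, 0.519 and 0.818 CPM in knockouts, against 0.632, 0.89, 1.16 and 0.896 CPM in controls. The ranges overlapped (log2 fold change -0.36 ± 0.26, SE, edgeR adjusted p = 0.267). Its 95% interval, -0.92 to 0.20, leaves a wide range of changes possible, with 88 counts in all knockouts and 68 in all controls. Tmem173 encodes STING. Its level was 2.29, 3.27, 2.05 and 2.55 CPM in knockouts and 2.0, 2.67, 3.32 and 2.49 CPM in controls. Knockout 2 and control 3 were the highest of their groups and nearly equal (log2 fold change -0.04 ± 0.19, SE, edgeR adjusted p = 0.884, 95% interval -0.45 to 0.38). Zbp1 encodes a sensor of Z-form nucleic acid that can start cell death, and it had 0.115, 0.463, 0.173 and 0.409 CPM in knockouts, against 0.421, 0.785, 0.608 and 0.448 CPM in controls. Knockouts 1 and 3 were lowest, knockout 4 lay just below the lowest control and knockout 2 lay among the controls (log2 fold change -0.92 ± 0.41, SE, edgeR adjusted p = 0.0778). Without knockout 2 Zbp1 was called, at -1.23 (edgeR adjusted p = 0.0355). Zbp1 rests on 38 counts in knockouts and 43 in controls.

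All 5 transcription factors were lower after TMM scaling, and all 5 values were above 0 with scaling by library totals alone. Stat2, a subunit of the complex that binds the ISRE, had 3.67, 5.72, 5.39 and 5.95 CPM in knockouts, against 8.79, 10.4, 10.8 and 9.76 CPM in controls. Knockout 1 was the lowest and no knockout reached a control (log2 fold change -0.93 ± 0.14, SE, edgeR adjusted p = 7.02e-05). Irf9, the subunit of that complex that contacts DNA, had 4.35, 6.48, 4.84 and 5.26 CPM in knockouts, against 10.001, 9.16, 11.8 and 11.1 CPM in controls. All 4 knockouts lay well below the controls (log2 fold change -0.9997 ± 0.13, SE, edgeR adjusted p = 2.06e-05). Irf9 overlaps Rnf31 on the same strand, so some reads may belong to either gene. Irf7, the interferon-inducible factor that amplifies type I interferon, had 2.48, 4.91, 2.68 and 3.05 CPM in knockouts, against 4.9, 5.6, 5.36 and 5.63 CPM in controls. Knockout 2 reached the level of control 1, and the other knockouts lay lower (log2 fold change -0.70 ± 0.19, SE, edgeR adjusted p = 0.00712). Irf1, a target of interferon gamma that itself activates GTPase genes, had 7.75, 8.53, 7.46 and 7.11 CPM in knockouts, against 14.9, 13.9, 10.4 and 8.51 CPM in controls. The controls were spread, and control 4 was level with the highest knockout (log2 fold change -0.63 ± 0.15, SE, edgeR adjusted p = 0.00321). Irf3, which is present without interferon and is switched on by phosphorylation, had 10.96, 11.2, 9.83 and 11.99 CPM in knockouts, against 12.5, 14.8, 12.4 and 13.5 CPM in controls. The groups just failed to touch, and the change was the least of the 5 (log2 fold change -0.27 ± 0.09, SE, edgeR adjusted p = 0.0232). Its call was lost without knockout 3, control 2 or control 4 (edgeR adjusted p = 0.0515 to 0.0800). Irf3 overlaps Bcl2l12 and Irf7 overlaps Phrf1 on opposite strands.

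Of the 11 antiviral effectors 10 were tested, 9 of these were lower after TMM scaling and Ifit2 did not pass, while with scaling by library totals alone 2 were lower and 4 higher. The OAS enzymes make oligoadenylate, the signal that turns on RNase L. Oas2 had 0.84, 3.21, 1.5 and 2.39 CPM in knockouts, against 5.74, 5.39, 6.02 and 8.71 CPM in controls. Knockout 1 was far below the others and control 4 above the other controls, with no overlap (log2 fold change -1.68 ± 0.29, SE, edgeR adjusted p = 2.39e-04). Oas1a had 0.382, 0.463, 0.461 and 0.504 CPM in knockouts, against 1.0, 1.05, 1.22 and 1.59 CPM in controls. Its knockouts were close together and below every control (log2 fold change -1.41 ± 0.25, SE, edgeR adjusted p = 3.22e-04). Oas3 was not tested, with 36 counts in knockouts and 19 in controls. Oasl2, a relative that in mouse keeps enzyme activity, had 3.67 to 5.9 CPM in knockouts, against 6.47 to 8.17 CPM in controls (log2 fold change -0.49 ± 0.15, SE, edgeR adjusted p = 0.0131). Bst2 encodes tetherin, which holds budding virus at the cell surface, and had 1.22, 2.23, 1.79 and 1.89 CPM in knockouts, against 3.74, 3.66, 4.53 and 3.68 CPM in controls. Its groups did not overlap, and control 3 was the highest library (log2 fold change -1.11 ± 0.18, SE, edgeR adjusted p = 1.37e-04).

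Mx2, a dynamin-like GTPase that blocks viruses, had 0.191 to 0.607 CPM in knockouts, against 1.05 to 1.94 CPM in controls (log2 fold change -1.91 ± 0.36, SE, edgeR adjusted p = 5.15e-04). Its fall was the second in size among the 41 genes, on 47 counts in knockouts and 107 in controls. The IFIT proteins bind viral RNA ends, and their genes sit side by side on chromosome 19. Ifit1 had 2.56 to 4.56 CPM in knockouts, against 5.79 to 7.13 CPM in controls (log2 fold change -0.96 ± 0.17, SE, edgeR adjusted p = 4.13e-04). Ifit3 had 3.4 to 4.82 CPM in knockouts, against 5.05 to 7.85 CPM in controls (log2 fold change -0.64 ± 0.16, SE, edgeR adjusted p = 0.00436). Ifit2, whose gene ends 7112 bases before Ifit3, did not pass the test. It had 15.2, 11.01, 12.5 and 13.4 CPM in knockouts, against 12.4, 13.6, 13.3 and 9.51 CPM in controls. The groups overlapped throughout, with knockout 1 highest and control 4 lowest (log2 fold change 0.09 ± 0.12, SE, edgeR adjusted p = 0.569, 95% interval -0.17 to 0.35). Rsad2 encodes viperin, an enzyme that makes a chain-ending nucleotide, and had 8.36 to 14.3 CPM in knockouts, against 13.1 to 19.1 CPM in controls (log2 fold change -0.56 ± 0.15, SE, edgeR adjusted p = 0.00692). Knockout 4 was above control 4 for Rsad2. Ifitm3 had 11.1 to 14.2 CPM in knockouts, against 16.2 to 18.7 CPM in controls (log2 fold change -0.40 ± 0.09, SE, edgeR adjusted p = 0.00281). Reads of Oas1a and of Ifit1 and Ifit3 may be shared with near-identical relatives, so how counts divide within these families is uncertain.

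Both genes of the ISG15 system were lower after TMM scaling, and neither passed with scaling by library totals alone. Isg15 encodes a ubiquitin-like protein that is joined to other proteins. It had 0.267, 0.289, 0.375 and 0.661 CPM in knockouts, against 0.737, 0.471, 0.884 and 1.145 CPM in controls. Knockout 4 lay above control 2, so the groups overlapped (log2 fold change -1.01 ± 0.35, SE, edgeR adjusted p = 0.0289). The gene had 51 counts in knockouts and 62 in controls. The call was lost without knockout 2, knockout 3, control 3 or control 4 (edgeR adjusted p = 0.0650 to 0.117). Usp18 removes ISG15 from proteins and also blocks the type I interferon receptor. Its level was 0.802, 1.56, 0.865 and 1.23 CPM in knockouts and 2.84, 2.46, 3.43 and 3.19 CPM in controls. The groups were well apart, and the estimated level was 2.64-fold lower (log2 fold change -1.40 ± 0.22, SE, edgeR adjusted p = 1.14e-04).

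The 7 interferon-inducible GTPases had the lowest median of the role groups after TMM scaling, -1.37, with 7 of 7 lower and none overlapping, and with scaling by library totals alone 3 were lower, 0 higher and the median -0.39. These proteins coat and break the vacuoles of intracellular microbes, and some of them act on lipid droplets and mitochondria. Igtp had 3.13, 2.54, 2.65 and 2.86 CPM in knockouts, against 14.6, 14.03, 15.3 and 11.1 CPM in controls. The knockouts were nearly equal, and the estimated level was 4.92-fold lower, the largest fall among the 41 genes (log2 fold change -2.30 ± 0.12, SE, edgeR adjusted p = 4.27e-09). Irgm2, its neighbour on chromosome 11, had 7.79, 7.52, 7.41 and 7.74 CPM in knockouts, against 26.9, 22.6, 24.3 and 15.4 CPM in controls. The 4 knockouts spanned a narrow range, while control 4 was lower than the other controls (log2 fold change -1.55 ± 0.14, SE, edgeR adjusted p = 6.18e-07). The annotated Igtp gene (chr11:58199556-58207591) lies almost wholly within the span of Irgm2 (chr11:58199618-58222782) on the same strand. Reads of the shared part may belong to either gene, so how counts divide between them is uncertain.

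Gbp3 had 1.76, 2.6, 3.26 and 2.71 CPM in knockouts, against 9.16, 8.64, 6.96 and 5.68 CPM in controls. Knockout 1 was the lowest and control 4 the lowest control (log2 fold change -1.54 ± 0.19, SE, edgeR adjusted p = 1.08e-05). Guanylate-binding proteins of this family gather on pathogen vacuoles. Gbp2 had 2.63 to 4.01 CPM in knockouts, against 5.97 to 10.5 CPM in controls (log2 fold change -1.37 ± 0.17, SE, edgeR adjusted p = 1.79e-05). Gbp7, whose gene ends 9877 bases before Gbp3, had 7.26 to 9.22 CPM in knockouts, against 12.1 to 23.5 CPM in controls (log2 fold change -1.17 ± 0.16, SE, edgeR adjusted p = 3.50e-05). Members of this cluster resemble each other, and shared reads leave their split uncertain. Irgm1, which holds the other GTPases inactive on the cell's own membranes, had 7.12 to 8.85 CPM in knockouts, against 12.05 to 15.5 CPM in controls (log2 fold change -0.89 ± 0.11, SE, edgeR adjusted p = 1.10e-05). Ifi47 had 0.993 to 1.67 CPM in knockouts, against 1.79 to 3.04 CPM in controls (log2 fold change -0.83 ± 0.21, SE, edgeR adjusted p = 0.00461). Both estimates lay nearer to 0 than those of Igtp, Irgm2 and the guanylate-binding proteins, and these differences were not tested.

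**Figure D3:**
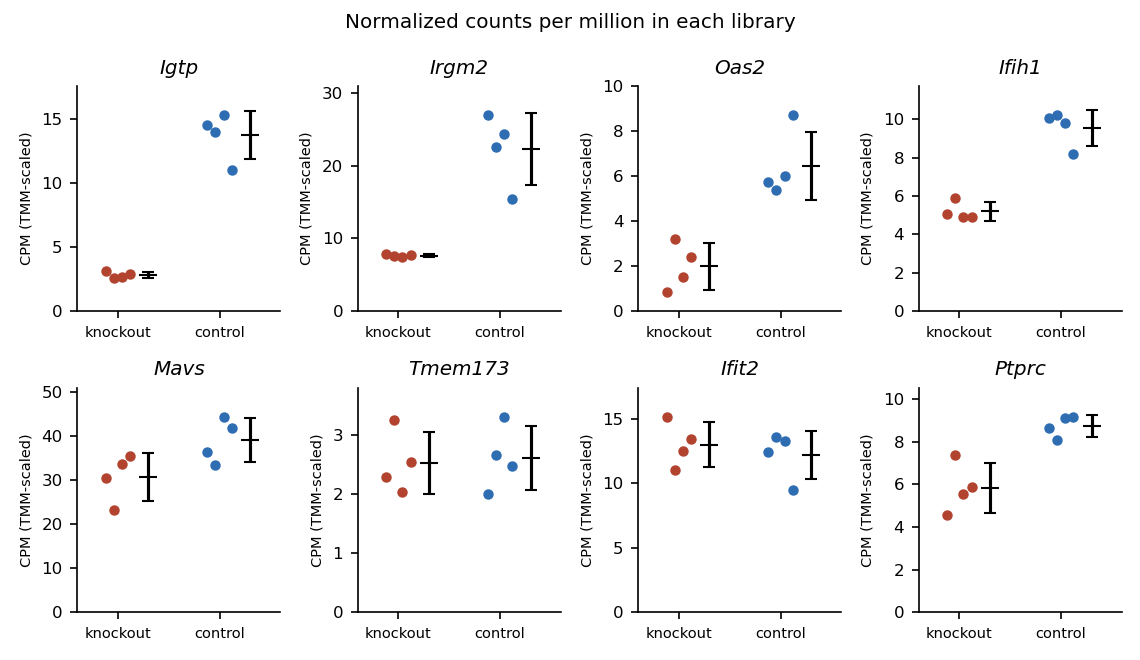
CPM after TMM scaling in each library for 8 genes, 4 knockouts left of 4 controls, with the mean and SD of each group as bars. Igtp, Irgm2, Oas2 and Ifih1 show groups that do not overlap, Mavs overlaps in part, Tmem173 and Ifit2 overlap throughout, and the leukocyte gene Ptprc is lower in knockouts. With scaling by library totals alone the direction flips for Ifih1, Mavs, Tmem173 and Ptprc.

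The 3 PARP and DTX3L genes were lower with small errors after TMM scaling, while none passed with scaling by library totals alone. PARP9 and DTX3L form a complex that modifies ubiquitin and histones, and PARP14 adds ADP-ribose to proteins. Parp9 had 6.19, 6.22, 7.55 and 7.08 CPM in knockouts, against 14.2, 13.2, 13.4 and 14.1 CPM in controls. The groups were tight and far apart (log2 fold change -1.02 ± 0.09, SE, edgeR adjusted p = 7.82e-07). Dtx3l had 9.17, 8.99, 8.88 and 11.6 CPM in knockouts, against 22.2, 18.005, 23.5 and 19.7 CPM in controls. Knockout 4 was the highest knockout and still below every control (log2 fold change -1.11 ± 0.11, SE, edgeR adjusted p = 1.54e-06). Parp9 and Dtx3l overlap head to head on opposite strands of chromosome 16, so reads of the shared stretch cannot be assigned. Parp14 had 15.5, 19.7, 17.5 and 20.8 CPM in knockouts, against 33.7, 34.9, 38.8 and 35.2 CPM in controls. No knockout approached a control, on 2356 counts in knockouts and 2718 in controls (log2 fold change -0.95 ± 0.09, SE, edgeR adjusted p = 1.32e-06).

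The remaining 5 interferon-inducible genes were all lower after TMM scaling and without overlap, while with scaling by library totals alone none passed. Ifi44, an interferon-inducible gene of unsettled function, had 1.37, 2.37, 2.33 and 2.58 CPM in knockouts, against 4.16, 4.87, 5.19 and 5.33 CPM in controls. Knockout 1 was the lowest library (log2 fold change -1.16 ± 0.18, SE, edgeR adjusted p = 9.18e-05). Rtp4, which in mouse limits interferon responses, had 1.03, 2.43, 2.13 and 2.33 CPM in knockouts, against 4.68, 3.45, 4.2 and 5.08 CPM in controls. Knockout 1 was again lowest, well under the other knockouts (log2 fold change -1.12 ± 0.22, SE, edgeR adjusted p = 7.34e-04). Rtp4 overlaps Masp1 on the opposite strand. Xaf1, a gene linked to cell death, had 2.6, 3.61, 3.4 and 3.52 CPM in knockouts, against 5.79, 5.65, 6.02 and 5.33 CPM in controls. Its controls were close together and all above the knockouts (log2 fold change -0.79 ± 0.13, SE, edgeR adjusted p = 1.69e-04). Ifi27 had 2.22 to 3.58 CPM in knockouts, against 4.13 to 4.42 CPM in controls (log2 fold change -0.53 ± 0.15, SE, edgeR adjusted p = 0.00896). Ifi35 had 3.58 to 5.69 CPM in knockouts, against 6.07 to 7.32 CPM in controls (log2 fold change -0.61 ± 0.14, SE, edgeR adjusted p = 0.00245).

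The libraries differed within groups. Knockout 1 was the lowest knockout for 25 of the 42 genes, and the median of the tested genes, as a log2 ratio to the control mean, was -1.15, -0.74, -1.003 and -0.75 in knockouts 1 to 4. Among controls, library 4 was the lowest for 7 of 7 GTPases and the highest for Oas1a, Oas2, Mx2 and Isg15, a set of 4 picked after their values had been seen. That choice fixes the contrast with the GTPases, and control 4 was the lowest control for Oas3 and Oasl2. Over the 42 genes, control 4 was the lowest control for 15 and the highest for 10. Among the 31 tested genes with a promoter window, 16 of 16 with an ISRE core were lower and their median log2 fold change was -0.98. Of the 15 without it, 13 were lower and the median was -0.61. With the GAS pattern, 8 of 9 were lower with a median of -1.11, and without it 21 of 22 with a median of -0.81. These values describe the genes, and no test was made of the difference.

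In the authors' deposited table, 33 of the 42 genes had an adjusted p under 0.05 and a lower level in knockouts, and 0 were higher, where 16.4% of 24245 genes with an adjusted p were lower. The same 33 were called by edgeR here, and 41 had the same sign in both. Mavs, Irf3 and Isg15 were called by edgeR alone, with adjusted p-values of 0.0531, 0.0630 and 0.0596 in the authors' deposited table. The deposited table rests on the same 8 libraries and is not independent.

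In the lists around the 42 genes, lower calls after TMM scaling made up 63.1% of the further interferon-stimulated genes tested. In the other lists with genes tested they made up 6.67% to 18.75%, below the 23.9% of all genes. Higher calls made up 26.1% of all genes, and with scaling by library totals alone 2.68% were lower and 78.6% higher. Interferon itself was not seen: 13 interferon genes had 10 counts in all knockouts and 7 in all controls, 9 of them had no count, and 0 were tested. The counts belonged to Ifnk, Ifnz, Ifnb1 and Ifna2, named after their values were seen. Genes behind small counts in these lists are named after their values were seen. Of 17 receptor and JAK-STAT genes, with a median of -0.07, 4 were higher (Ifngr1, Ifnlr1, Jak1 and Ptpn11), 3 lower (Ifngr2 and Pias1 among them) and 10 did not pass after TMM scaling, whereas 15 were higher and 0 lower with scaling by library totals alone. The interferon gamma receptor chains split, with Ifngr1 higher (log2 fold change 0.48 ± 0.09, SE, edgeR adjusted p = 4.32e-04) and Ifngr2 lower (log2 fold change -0.45 ± 0.07, SE, edgeR adjusted p = 1.96e-04).

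The counts that follow stand beside 26.1% of all genes tested called higher and 23.9% lower after TMM scaling. With scaling by library totals alone these shares were 78.6% and 2.68%. Of 35 other sensors, adaptors and kinases tested, with a median of 0.01, 5 were higher after TMM scaling (Nlrc3, Lrrfip1, Tomm70a, Myd88 and Irak4). Lower were 6 (Tlr3, Irak1, Irf2, Pycard, Nlrx1 and Rnf135), and 24 did not pass. With scaling by library totals alone 31 were higher and 0 lower. After TMM scaling the count of higher genes was 3 without knockout 2, knockout 4, control 2 or control 3. Nlrc3, a NOD-like protein that restrains STING in mouse, had 14.2, 16.6, 19.6 and 17.3 CPM in knockouts, against 2.26, 2.2, 2.27 and 2.84 CPM in controls. All knockouts were several-fold above all controls (log2 fold change 2.82 ± 0.13, SE, edgeR adjusted p = 1.07e-09). Lrrfip1, a cytosolic nucleic acid binding protein, was higher as well (log2 fold change 0.71 ± 0.09, SE, edgeR adjusted p = 1.41e-05). Tomm70a, the import receptor that also binds MAVS, was higher too (log2 fold change 0.49 ± 0.06, SE, edgeR adjusted p = 2.33e-05). Of 16 nucleic acid clearance genes tested, with a median of 0.09, 5 were higher (Rnaset2a, Rnaset2b, Rexo2, Rnaseh1 and Skiv2l), 3 lower (Samhd1, Endog and Exog) and 8 did not pass after TMM scaling, whereas 14 were higher and 0 lower with scaling by library totals alone. The first 3 by p-value were Rnaset2a, an acid ribonuclease (log2 fold change 1.12 ± 0.14, SE, edgeR adjusted p = 1.23e-05), Rexo2, a mitochondrial exonuclease of short RNA (log2 fold change 0.69 ± 0.09, SE, edgeR adjusted p = 2.27e-05), and Skiv2l, a helicase of the cytosolic RNA exosome (log2 fold change 0.53 ± 0.10, SE, edgeR adjusted p = 8.07e-04), all higher in knockouts. Rnaset2a has a near-identical copy, Rnaset2b, so its counts are uncertain.

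Of 77 further interferon-stimulated genes 65 were tested, of which 41 were lower (63.1%), 4 higher (Ifit1bl1, Tor3a, Cd47 and Lap3) and 20 did not pass after TMM scaling, whereas 5 were lower and 31 higher with scaling by library totals alone. Their median log2 fold change was -0.53. The first were GTPases again. Iigp1 had 11.9, 11.1, 10.1 and 10.6 CPM in knockouts, against 52.2, 52.2, 57.2 and 39.9 CPM in controls (log2 fold change -2.20 ± 0.11, SE, edgeR adjusted p = 1.61e-09). Gbp6 had 0.917, 1.13, 1.12 and 1.04 CPM in knockouts, against 5.0, 3.98, 6.74 and 3.88 CPM in controls (log2 fold change -2.20 ± 0.20, SE, edgeR adjusted p = 7.43e-07). For both, every knockout was far below every control. Lap3, an aminopeptidase, went the other way, with 15.3, 15.1, 17.3 and 16.6 CPM in knockouts and 7.74, 9.42, 8.07 and 8.26 CPM in controls (log2 fold change 0.94 ± 0.09, SE, edgeR adjusted p = 1.25e-06). Of 18 NF-kB response genes 15 were tested, with a median of -0.06. After TMM scaling 2 were higher, 1 lower and 12 did not pass, where 26.1% of all genes tested were higher and 23.9% lower. With scaling by library totals alone 14 of the 15 were higher and 0 lower. Tnf, Il6 and Il1b did not pass the filter on low counts. Il6 had 0.191 to 0.881 CPM in knockouts and 0 to 0.0996 CPM in controls, on 61 and 3 counts. The values of Tnf and of Il1b overlapped between the groups. Vcam1, an adhesion protein (log2 fold change 0.44 ± 0.11, SE, edgeR adjusted p = 0.00444), and Ptgs2, the inducible prostaglandin synthase (log2 fold change 1.57 ± 0.49, SE, edgeR adjusted p = 0.0159), were higher. Ptgs2 lost its call without control 1 or control 4 (edgeR adjusted p = 0.0564 to 0.0575). Nfkbia, the inhibitor of NF-kB, was lower (log2 fold change -0.33 ± 0.13, SE, edgeR adjusted p = 0.0403) and lost its call without knockout 2, knockout 4, control 1 or control 2 (edgeR adjusted p = 0.0934 to 0.129). The counts of this list were 4 higher without control 2, 0 lower without knockout 2 or control 2, and 2 lower without control 1.

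**Figure D4:**
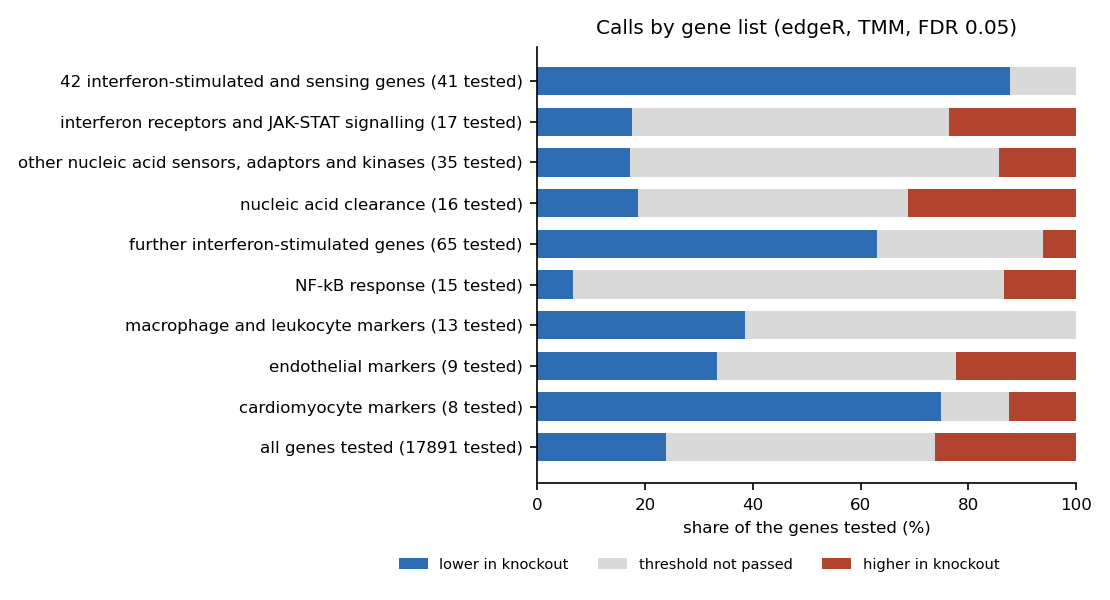
Share of the genes tested in each list drawn that was lower (blue), higher (red) or did not pass (grey) after TMM scaling. All 17891 genes tested are at the bottom. Of the marker lists, only macrophage and leukocyte, endothelial and cardiomyocyte markers are drawn. The 42 genes and the further interferon-stimulated genes have the longest blue bars beside the cardiomyocyte markers. With scaling by library totals alone, 5 of the 41 genes tested are lower and 9 higher.

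Some markers of heart cell types were called too, and their part in these results was not tested. All genes tested were lower in 23.9% and higher in 26.1%, or 2.68% and 78.6% with scaling by library totals alone. After TMM scaling, lower calls made up 38.5% of macrophage and leukocyte, 33.3% of endothelial and 0% of fibroblast markers. They made up 16.7% of smooth muscle and pericyte and 75% of cardiomyocyte markers. The lists are small, and several of these shares lie near that of all genes. Of 13 macrophage and leukocyte markers 5 were lower (Ptprc, Lyz2, C1qa, C1qb and C1qc) and 0 higher after TMM scaling (also 0 higher at an unadjusted p under 0.05 and with DESeq2), whereas 10 were higher with scaling by library totals alone. Their summed level was 109 to 163 CPM in knockouts, against 149 to 209 CPM in controls. Their median log2 fold change was -0.23, where that of the 41 genes was -0.89. Ptprc, the pan-leukocyte CD45, was lower (log2 fold change -0.58 ± 0.13, SE, edgeR adjusted p = 0.00219), while Adgre1, Cd68 and Csf1r did not pass (-0.44, 0.24 and -0.23 on the log2 scale). Markers of T, B and NK cells summed to 0.84 to 2.54 CPM in knockouts and 1.33 to 1.83 CPM in controls, with Cd4 the 1 gene of 11 tested, which did not pass (log2 fold change 0.27 ± 0.36, SE, edgeR adjusted p = 0.555). Neutrophil and plasmacytoid dendritic cell markers summed to 2.36 to 4.74 CPM in knockouts and 2.71 to 3.25 CPM in controls. Of 2 tested, Csf3r was higher (log2 fold change 1.0029 ± 0.31, SE, edgeR adjusted p = 0.0152; not called without control 2) and Ccr9 lower (log2 fold change -0.85 ± 0.20, SE, edgeR adjusted p = 0.00236). Ly6g was at 0 in all libraries. Siglech, the marker of plasmacytoid dendritic cells, was not tested. It had 0.0289 to 0.441 CPM in knockouts and 0.111 to 0.211 CPM in controls, on 28 and 12 counts.

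Endothelial markers were near level by sum, at 396 to 427 CPM in knockouts and 416 to 440.3 CPM in controls, with 2 of 9 higher (Vwf and Cldn5) and 3 lower (Kdr, Tek and Tie1) after TMM scaling and 9 higher with scaling by library totals alone. Pecam1 did not pass (log2 fold change 0.15 ± 0.10, SE, edgeR adjusted p = 0.243). Fibroblast markers summed to 223 to 407 CPM in knockouts and 242 to 254 CPM in controls, with 3 of 7 higher (Col1a1, Col1a2 and Tcf21) and 0 lower after TMM scaling and 7 higher with scaling by library totals alone, also 0 lower at an unadjusted p under 0.05 and with DESeq2. Without knockout 1 the higher count was 6. Smooth muscle and pericyte markers summed to 477 to 524 CPM in knockouts and 527 to 549 CPM in controls, with 1 of 6 higher (Cspg4) and 1 lower (Acta2) after TMM scaling and 5 higher with scaling by library totals alone. Leaving out a library gave 1 to 2 higher and 1 to 2 lower of these, with 2 higher without knockout 1, knockout 2 or control 3 and 2 lower without knockout 1 or knockout 4. Cardiomyocyte markers were lower in 6 of 8 and higher in 1 (Actn2) after TMM scaling, with sums of 7189 to 11267 CPM in knockouts and 15513 to 16326 CPM in controls, whereas 4 were higher and 2 lower with scaling by library totals alone. Myh6, the main myosin of the mouse heart, marks the tissue in all libraries (log2 fold change -0.75 ± 0.13, SE, edgeR adjusted p = 2.10e-04).

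The direction of the interferon-stimulated genes depends on the scale. With scaling by library totals alone, where mitochondrial RNA counts in full, the median of all genes tested shifted to 0.97, with 78.6% of all genes higher and 2.68% lower. On that scale the median of the 41 genes was 0.09. A change of scale moves all genes by about the same amount, so it leaves a gene's place relative to the all-gene median as it was, with 40 of the 41 genes below that median after TMM scaling. The 9 called higher were Adar, Ifit2, Ifitm3, Irf3, Mavs, Oasl2, Rsad2, Tmem173 and Trim25. As a share of all counts, 26 of the 41 genes were above the controls and 15 below.

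**Figure D5:**
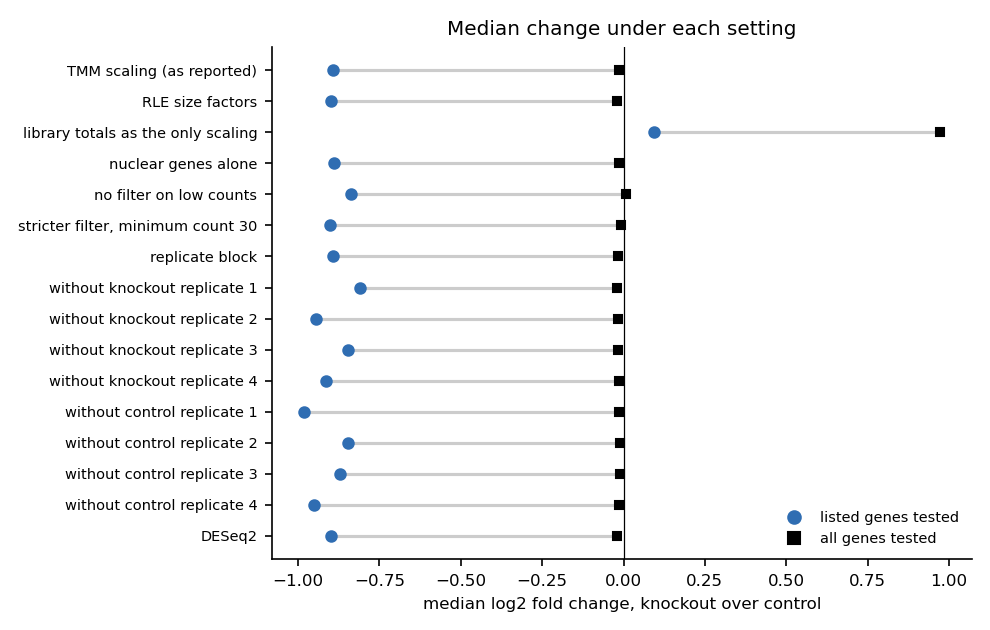
Median log2 fold change, knockout over control, of the listed genes tested (blue points) and of all genes tested (black squares) under each setting. The blue points lie between -0.98 and -0.81 except with scaling by library totals alone, where both medians move up, to 0.09 for the listed genes and 0.97 for all genes.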

How the data were processed

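Raw counts per gene were deposited by the authors as whole numbers for 8 libraries. The submitters' processing notes list bedtools, Bowtie2, DESeq2 1.14.1, featureCounts, R 3.3.2, SAMtools 1.3.1 and the build mm10, with no role for each. Whether rRNA was removed, and whether strand was kept, the sources used here do not say. The authors' deposited table holds per gene the mean of the normalized signal, the log2 fold change and its error, the score of the test, and p-values before and after adjustment. The deposited normalized counts were not used.

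Counts were tested with edgeR 4.0.16 in R 4.3.3 (two-sided quasi-likelihood F test on genotype alone, TMM scaling, low counts removed by filterByExpr at 10), with Benjamini-Hochberg adjustment at 0.05 over all 17891 genes tested. TMM factors were 1.03 to 1.61 in knockouts and 0.689 to 0.733 in controls, and the biological coefficient of variation was 11.3%. Depth was 21108165 to 27403415 counts per library. Values in CPM were computed from the counts and TMM-scaled totals. Intervals cover 95% under the edgeR fit. The series text describes separate mice as replicates. The labels state no pairing of the mice by replicate number, and no libraries agreed within counting noise. Of the features, 49289 were found by identifier in GENCODE vM21 (GRCm38), 43712 of them in the same version, which gave positions and exon lengths. Promoters are from RefSeq, GRCm38.p6. The test was checked on simulated counts. Alternatives were RLE factors, library totals, nuclear genes alone, no filter, a minimum count of 30, DESeq2 1.42.0, the replicate number as a block, each library left out, and a 1.5-fold rule. Figures used matplotlib 3.10.9.

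The 42 genes, the lists around them and the tests were chosen with earlier results of these data known. Values of every library are given for all sensors, adaptors and transcription factors, and for the 3 genes of smallest p in each other role group. Ifit2 was added. From each list around them up to 3 called genes of smallest p are named, apart from 1 that is not reported here.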

Additional observations from a re-analysis of the deposited data

Results flagged for a closer look

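In 5 of 112 groups of 4 libraries examined, the highest or lowest library stood apart from the other 3 by more than Dixon's 95% critical value, read as its gap over the whole range. Chance alone gives this in about 1 of 20 groups, so a count of 5 is no more than chance gives. Dtx3l had 11.6 CPM in knockout 4, where the other knockouts had 8.88 to 9.17 CPM. Rsad2 had 13.1 CPM in control 4, where the other controls had 18.1 to 19.1 CPM. Irgm1 had 12.05 CPM in control 4, where the other controls had 15.2 to 15.5 CPM. Nlrc3 had 2.84 CPM in control 4, where the other controls had 2.20 to 2.27 CPM. Bst2 had 4.53 CPM in control 3, where the other controls had 3.66 to 3.74 CPM.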

How the results depend on the processing

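Of the 42 genes, 36 were called lower with RLE factors, with nuclear genes alone and with DESeq2, 35 without a filter, 33 of 35 tested at a minimum count of 30, 37 with the replicate number as a block, 28 with a 1.5-fold rule, and 33 to 37 with each library left out in turn. None of these settings called any higher. The median log2 fold change of the tested genes was -0.98 to -0.81 with each library left out. Leaving out each library gave 17 to 23 higher and 49 to 56 lower of the genes around them. A 1.5-fold rule gave 9 higher and 34 lower of these, against 20 and 54. With scaling by library totals alone, 9 of the 42 genes were higher and 5 lower, the median was 0.095, and 105 of the genes around them were higher and 5 lower. On that scale the sign of the log2 fold change reversed for Ifih1 (0.12), Ddx58 (0.40), Dhx58 (0.24), Zbp1 (0.0736), Mb21d1 (0.62), Tmem173 (0.96), Mavs (0.65), Adar (0.65), Trim25 (0.60), Stat2 (0.0882), Irf1 (0.36), Irf3 (0.71), Irf7 (0.31), Irf9 (0.00666), Ifit1 (0.0458), Ifit3 (0.37), Oasl2 (0.53), Rsad2 (0.46), Ifitm3 (0.61), Irgm1 (0.095), Ifi47 (0.18), Parp14 (0.0552), Ifi27 (0.48), Ifi35 (0.35) and Xaf1 (0.22), and for Ifngr2 (0.53), Nfkbia (0.67) and Ptprc (0.43). By construction, the scales differ by the ratio of the TMM factors of the groups. Near 0, Tmem173 changed sign without a filter (0.00855), and with each library left out it ranged from -0.185 to 0.0890, above 0 without knockout 3 or control 3. Ifit2 ranged from -0.0172, without control 4, to 0.166.

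Same-numbered mice correlated at -0.01 to 0.05, and other pairs of a knockout and a control at -0.07 to 0.09. The labels state no pairing, and correlations of expression cannot exclude one by litter or preparation. With the replicate block Dhx58 was also called lower (-0.73), and without a filter Irf3 was no longer called (-0.23). For lost calls the cause was not tested. With 4 mice a group, depth limits Oas3, Zbp1, Mb21d1, Mx2, Isg15 and Oas1a, which have the fewest counts.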
